A study of Rattus norvegicus with 6 samples.

Results

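The rat miRNAs considered here are the known miRNAs whose number is 1000 or above, a set of 65 of the 1071 mature miRNAs with counts in small RNA libraries of nerve fibroblasts and their vesicles. They were chosen by name alone: the identifier begins with the rat prefix and a number of at least 1000, with any letter or arm, and miR-1224 and miR-1839 left out. The 65 miRNAs carry 50 distinct numbers. The rest of the table comprised 487 other known miRNAs and 519 predicted by the authors. The 6 samples, all in batch 1 by their labels, came from fibroblasts of the sciatic nerve of wild type rats and had no treatment. RNA was taken from the extracellular vesicles (EV, called exosomes in the labels) of the fibroblasts in 3 samples and from inside the cells (Intracellular) in the other 3, which served as controls. The labels give neither age, sex nor strain, and do not tell whether replicates were separate cultures or animals. Every p-value below therefore covers only how these libraries vary, which may be technical variation.

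A miRNA is cut from a hairpin precursor, first by the Drosha and Dgcr8 complex in the nucleus and then by Dicer in the cytoplasm, and 1 arm of the resulting duplex is loaded into an Argonaute protein. Bases 2 to 8 of the mature strand, the seed, pair with target mRNAs. Numbers are given in the order of registration, so miRNAs with high numbers were mostly found by deep sequencing, and many are weakly expressed, restricted to rodents, or lie on the strand opposite a miRNA that was named earlier. A high number is not a measure of evolutionary age, since human miRNAs bear some of the same numbers, among them miR-1306, miR-1249, miR-3074 and miR-3120. The set is therefore described by its numbering and not as young.

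The sequences of the 7 miRNAs called different between EV and Intracellular libraries, and of the most abundant miRNAs of the set inside the cells, miR-3557-5p and miR-1843b-5p, are shown first, since the results turn on them. They are the sequences of the deposited table, 5′ to 3′, with the seed in capitals.
miR-3473: tCTAGGGCtggagagatggcta
miR-3553: cAGTGAATtctaccagtgccata
miR-1188-5p: tGGTGTGAggttgggccagga
miR-1306-3p: gACGTTGGctctggtggtgatg
miR-3120: cACAGCAAgtgtagacaggca
miR-1193-3p: tAGGTCACccgttttactatcc
miR-3068-3p: gGTGAATTgcagtactccaaca
miR-3557-5p: gCCTTCTGactccaagtccagt
miR-1843b-5p: aTGGAGGTctctgtctgacttag
miR-1193-3p shared its seed with miR-370-5p, and miR-1843a-3p shared its seed with miR-1843b-3p. No other miRNA of the set shared a seed with a known miRNA of the table.
miR-370-5p: cAGGTCACgtctctgcagttacac
miR-1843a-5p: tATGGAGGtctctgtctgact
The 5p arms of miR-1843a and miR-1843b had 20 bases in common, offset by 1 base, so their seeds differed. How reads shared by both were divided is not given in the sources used here, and their separate levels are uncertain.

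Of the 65 sequences, 61 were found in RefSeq's rat miRNA table (build GRCr8), and 60 were found by name. Of the 61 with a position, 50 lay within the span of another annotated gene. The strand of that gene was not compared, so 'within' below does not mean the same strand. miR-3473 was placed at chr13:42051730-42051751 (plus strand) within Zranb3, miR-1306-3p at chr11:96214007-96214028 (plus strand) within Dgcr8, and miR-3557-5p at chr18:57128924-57128945 (plus strand) within Ppargc1b. The position of miR-3120 was chr13:77121672-77121692 (minus strand) within Dnm3. miR-3553 lay at chr4:59756105-59756127 (plus strand), with the hairpins of miR-183, miR-96 and miR-182 within 10 kb and no other gene spanning it. RefSeq files the hairpin of miR-1843a under Scarna3 and that of miR-3068 under Snora58, which are symbols of small RNAs that guide RNA modification.

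Library depth limited what could be seen of this set. EV libraries held 81211 to 105578 counts in all, and Intracellular libraries held 1839047 to 8859302, so Intracellular libraries were on average 50.2 times as deep. The set took only 346 to 526 counts in each EV library. In CPM (counts scaled to a common library size of 1e6), a single count was worth 9.47 to 12.3 in EV and 0.113 to 0.544 in Intracellular libraries. Intracellular replicate 1 stood apart in its TMM scaling factor (0.557, against 0.963 and 0.935 in the other Intracellular libraries). The factors of EV replicates 1, 2 and 3 were 1.35, 1.26 and 1.17. CPM below carry no such factor, so overlap or separation in CPM is not on the scale of the TMM fold changes. The labelled cell type was checked on miRNA markers: 7 fibroblast and mesenchymal miRNAs summed to 435952 to 460553 CPM in EV and 474371 to 495643 CPM in Intracellular libraries. Of these 7, 2 were called higher and 4 lower in EV. The 6 epithelial markers were at 0 in EV and summed to at most 2.26 CPM in Intracellular libraries. Markers of liver and serum summed to 11612 to 14069 CPM in EV against 397.1 to 476.3 CPM in Intracellular libraries. Of these 3 markers 1, miR-122-5p, was called higher. The 3 erythroid markers summed to 151.5 to 221.6 CPM against 2.26 to 5.98 CPM, with miR-144-3p at 0 in EV. Of the erythroid markers 2 were tested, and both were called higher. Muscle markers summed to 49.3 to 151.5 CPM against 9.24 to 12.6 CPM, with 1 of the 4 at 0 in EV. The 1 muscle marker that was tested was called higher. Neuronal markers summed to 2197 to 2599 CPM in EV against 1580 to 3279 CPM, with 1 called higher and 2 lower. Leukocyte markers were at 216.6 to 265.2 against 63.6 to 169.9 CPM, and endothelial ones at 259.9 to 435.7 against 141.4 to 390.3 CPM. Markers of myelinating glia were at 0 to 47.4 against 8.16 to 20.1 CPM. No leukocyte, endothelial or glial marker that was tested was called. Whether RNA of other sources had a part in any result below was not tested.

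The miRNAs numbered 1000 or above were a minor part of both kinds of library, and a larger share in EV. Their share was 0.438% ± 0.0618 in EV and 0.246% ± 0.0820 inside the cells (SD over 3 libraries). The lowest EV library, replicate 3, stood at 0.375% and the highest Intracellular library, replicate 3, at 0.302%, so the groups did not overlap. The lowest of all was Intracellular replicate 1 at 0.152%; without it the difference of means fell from 0.192 to 0.145 percentage points. No test is given for this share, since it is a sum over a chosen set. With scaling to total counts the median log2 fold change over all 328 miRNAs tested below was 0.55. Of those, 41.8% had higher CPM in EV without overlap, so a larger share in EV is not shown to be particular to this set. These are shares of sequenced RNA, so a rise of these miRNAs cannot be told apart from a loss of others, nor fewer cells that make a miRNA from less of it per cell.

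Most of the set was close to the limit of detection. A count was found in 29 of the 65 in at least 1 EV library (44.6%) and in 15 in all 3 EV libraries. Of the other known miRNAs, 359 of 487 (73.7%) had an EV count. Inside the cells 64 of the 65 had a count and 32 had one in all 3 libraries. Over all 6 libraries 32 of the 65 had fewer than 10 counts, and 9 were seen in Intracellular replicate 3 alone, the deepest library. Of the 36 with no EV count, 35 would have had fewer than 1 EV count expected if their share in EV were that of the pooled Intracellular libraries (median 0.0598 counts). A lower level of these in EV was not detectable at this depth.

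Detection followed depth in the deposited libraries and had the opposite order at equal depth. EV replicates 1, 2 and 3 held 19, 22 and 21 of these miRNAs, and Intracellular replicates 1, 2 and 3 held 36, 52 and 58. When each library was drawn down to 81211 counts, the expected numbers were 19, 20.7 and 20.4 in EV and 14.9, 17.7 and 17.2 in Intracellular libraries. The means were then 20.02 ± 0.903 and 16.6 ± 1.47 (SD, n = 3). Other known miRNAs went the same way at equal depth, with 301.7 ± 2.90 in EV and 267.0 ± 16.4 in Intracellular libraries. Nothing in this order is shown to be particular to high numbers.

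**Figure D1:**
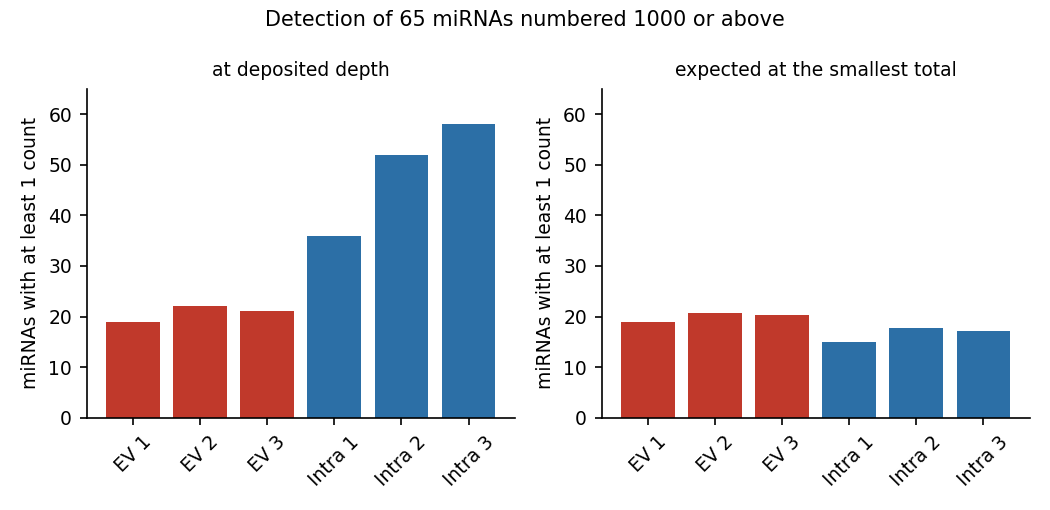
Number of the 65 miRNAs with at least 1 count in each library (bars; EV red, Intracellular blue) at deposited depth (left) and calculated for every library drawn down to the smallest total (right). Intracellular bars are the taller ones on the left (36 to 58 against 19 to 22) and the shorter ones on the right (14.9 to 17.7 against 19 to 20.7).

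Of the 65 miRNAs, 16 passed the filter on low counts and were tested. In EV 5 of these were higher, miR-3473, miR-3553, miR-1188-5p, miR-1306-3p and miR-3120, and 2 were lower, miR-1193-3p and miR-3068-3p (edgeR quasi-likelihood test on all 328 miRNAs that passed, TMM scaling, Benjamini-Hochberg adjusted p under 0.05). Among all miRNAs tested 25.6% were called higher and 17.1% lower, or 42.7% in either direction. The set's counts are read against these shares, and neither stood far from them. The shares include predicted miRNAs. Of the 274 other known miRNAs tested, 55 were called higher and 54 lower. Of the 16, 11 were over the filter in all 3 Intracellular libraries. Another 4, miR-3473, miR-3553, miR-1188-5p and miR-1306-3p, were over it in all 3 EV libraries but not in all Intracellular ones. Passing in this way favours a higher value in EV, without forcing it. The last, miR-3559-3p, passed through some libraries of each group. The 4 that passed through their EV libraries are among the 5 higher calls, and miR-3120 is the other. Reading the 5 against 25.6% therefore cannot tell whether the set differs. With scaling to total counts edgeR called 6 higher and 0 lower (1 lower at an unadjusted p under 0.05), with 32.6% of all tested called higher, 0.915% lower and 33.5% either. Between these scalings the median over all tested miRNAs moved from -0.06 to 0.55 in log2 fold change, a shift of 0.61, and that over the 16 from 0.07 to 0.66. Lower calls are thus relative to the TMM reference. CPM in every EV library exceeded those in every Intracellular library for 6 of the 16 and were below them for 0, where 41.8% of all tested miRNAs were higher without overlap, 3.66% lower and 45.4% either.

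**Figure D2:**
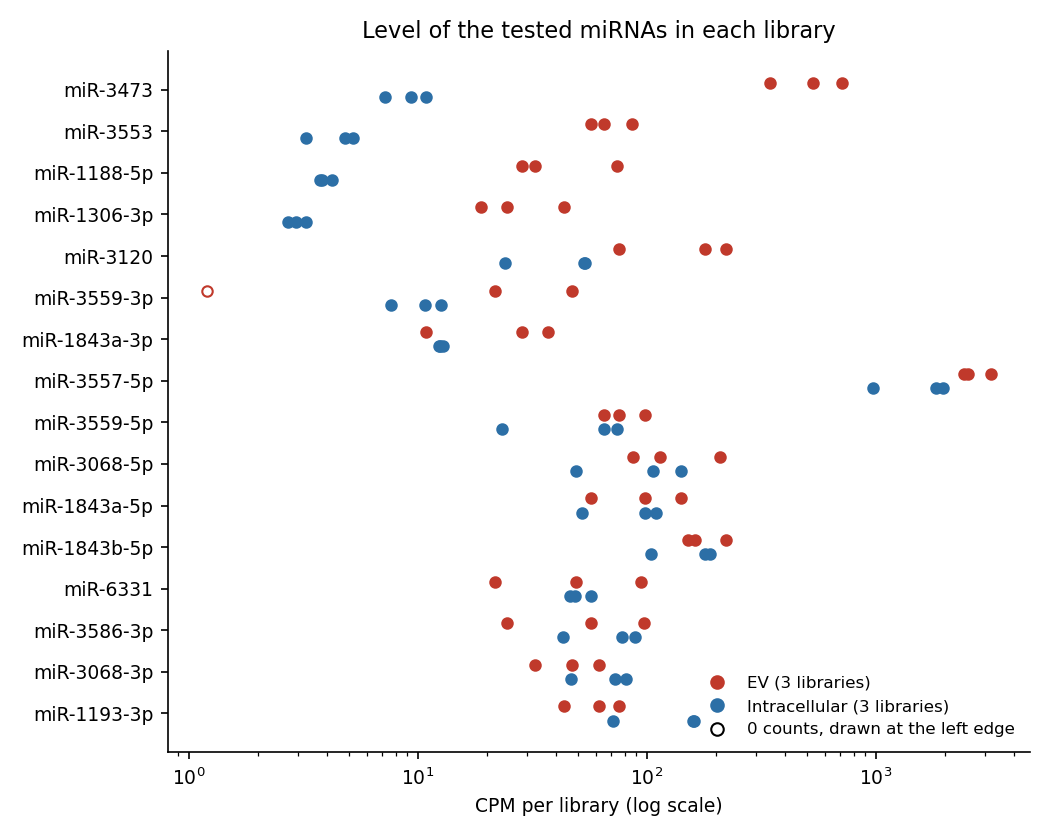
CPM of the 16 tested miRNAs in each of the 6 libraries (one point per library, log axis; EV red, Intracellular blue; the open point is a library with 0 counts), ordered by log2 fold change. EV points of miR-3473 (346.6 to 710.4 CPM) lie far to the right of its Intracellular points (7.22 to 10.9 CPM), while most miRNAs in the lower rows overlap between groups.

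miR-3473 had the largest difference among the 16. It stood at 529.5, 710.4 and 346.6 CPM in EV replicates 1, 2 and 3 and at 10.9, 9.36 and 7.22 CPM in Intracellular replicates 1, 2 and 3. Each EV library was thus far above each Intracellular one, and the mean rose from 9.15 ± 1.83 to 528.8 ± 181.9 CPM (SD, n = 3), with a log2 fold change of 5.29 (standard error, SE, 0.35; edgeR adjusted p = 6.38e-10). In raw numbers these were 150 EV counts, more than the 115 Intracellular counts in libraries with 50.2 times the depth. Of the set's counts it took 11.9% ± 2.51 in EV and 0.429% ± 0.254 inside the cells (SD, n = 3). The call held in all 21 alternative analyses, with log2 fold changes of 4.996 to 5.88.

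The sequence of miR-3473 recurred in rat promoters more often than that of any other known miRNA searched. The rodent B2 element is a short retroposon copied from a tRNA-like gene and transcribed by RNA polymerase III. As background, its start is known to read much like the middle and end of miR-3473. No B2 sequence was compared here. All 15-base stretches of each mature sequence were searched, on both strands, in the 33469 promoters of RefSeq (windows of 300 bases around gene starts). A stretch of miR-3473 was found in 111 promoters (0.332%), most often GCTGGAGAGATGGCT, which stood in 99. Among the other 64 of the set the largest number was 4 promoters, for miR-6328, and among 484 other known miRNAs it was 14. Of the predicted sequences 1, not described here, was in more. RefSeq places the whole mature sequence at 1 hairpin, and how reads from repeats were assigned is not given in the sources used here. A matching stretch is a description of the sequence and does not say where the reads came from.

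miR-3553 lies on the strand opposite miR-183, a miRNA of sensory cells. It was at 86.2, 56.8 and 64.98 CPM in EV replicates 1, 2 and 3 and at 3.26, 4.83 and 5.19 CPM in Intracellular ones. The groups were clearly apart, with a log2 fold change of 3.31 (standard error 0.50; edgeR adjusted p = 2.95e-05). This rests on 19 EV counts, 6 or 7 in each library. The call held in all 18 alternatives that could test it, with log2 fold changes of 3.05 to 3.90.

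miR-1188-5p lies among the imprinted miRNAs of rat chromosome 6, within 10 kb of miR-370 and miR-341. It was at 73.9, 28.4 and 32.5 CPM in EV and at 3.81, 4.23 and 3.72 CPM in Intracellular replicates 1, 2 and 3. All EV libraries were higher, replicate 1 the most, and the log2 fold change was 2.90 (SE 0.62; edgeR adjusted p = 0.00115), from 12 EV counts. Without EV replicate 1, and with the tested miRNAs kept, it was 2.44 and just missed the threshold (edgeR adjusted p = 0.0506; range over its 18 alternatives 3.55e-05 to 0.0506).

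miR-1306-3p is encoded within Dgcr8, the gene of the protein that binds hairpins together with Drosha. Its EV levels were 24.6, 18.9 and 43.3 CPM and its Intracellular levels 3.26, 2.72 and 2.93 CPM. The groups did not overlap, and the log2 fold change was 2.72 (SE 0.72; edgeR adjusted p = 0.00567), on only 8 EV counts. The call was lost without EV replicate 3, which held 4 of the 8 (log2 fold change 2.20, edgeR adjusted p = 0.0874 with the filter applied again, and 2.27 with 0.0732 with the tested miRNAs kept).

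miR-3120 comes from an intron of Dnm3, opposite the transcript that carries miR-214 and miR-199a. It stood at 221.6, 180.0 and 75.8 CPM in EV replicates 1, 2 and 3 and at 23.9, 53.7 and 53.2 CPM in Intracellular ones. EV replicate 3 was the nearest to the highest Intracellular library, and the groups did not overlap. The log2 fold change of 1.25 (standard error 0.34; edgeR adjusted p = 0.00651, 44 EV counts) fell to 1.02 without EV replicate 1 and 1.12 without EV replicate 2, with the tested miRNAs kept, and the call was lost (edgeR adjusted p = 0.0663 and 0.0547). With the filter applied again it was lost without EV replicate 1 (0.96, edgeR adjusted p = 0.0809).

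Both lower calls were lost with scaling to total counts. miR-1193-3p, from the same imprinted cluster as miR-1188, was at 61.6, 75.8 and 43.3 CPM in EV and at 71.2, 159.97 and 160.8 CPM in Intracellular replicates 1, 2 and 3. In CPM, which carry no TMM factor, EV replicate 2 lay above Intracellular replicate 1 and the groups overlapped there alone. miR-1193-3p fell by 1.69 on the log2 scale (SE 0.33, edgeR adjusted p = 0.000476, 17 EV counts). With total counts it fell by 1.11 and the call was lost (edgeR adjusted p = 0.0926). The call held in 18 of its 19 alternatives.

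miR-3068-3p was at 61.6, 47.4 and 32.5 CPM in EV and at 46.8, 72.4 and 81.2 CPM in Intracellular replicates 1, 2 and 3. In CPM, without the TMM factor, the groups overlapped in EV replicates 1 and 2 and Intracellular replicate 1. It fell by 1.14 (SE 0.38; edgeR adjusted p = 0.0214, 13 EV counts), and this call was lost in 8 of 18 alternatives, among them total counts (-0.52, edgeR adjusted p = 0.553), limma-voom (-1.01, adjusted p = 0.0720), and omission of EV replicate 2 (-1.16, edgeR adjusted p = 0.0771), EV replicate 3 (-0.99, edgeR adjusted p = 0.0599), Intracellular replicate 2 (-1.19, edgeR adjusted p = 0.0501) or Intracellular replicate 3 (-1.05, edgeR adjusted p = 0.0803), each with the tested miRNAs kept.

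**Figure D3:**
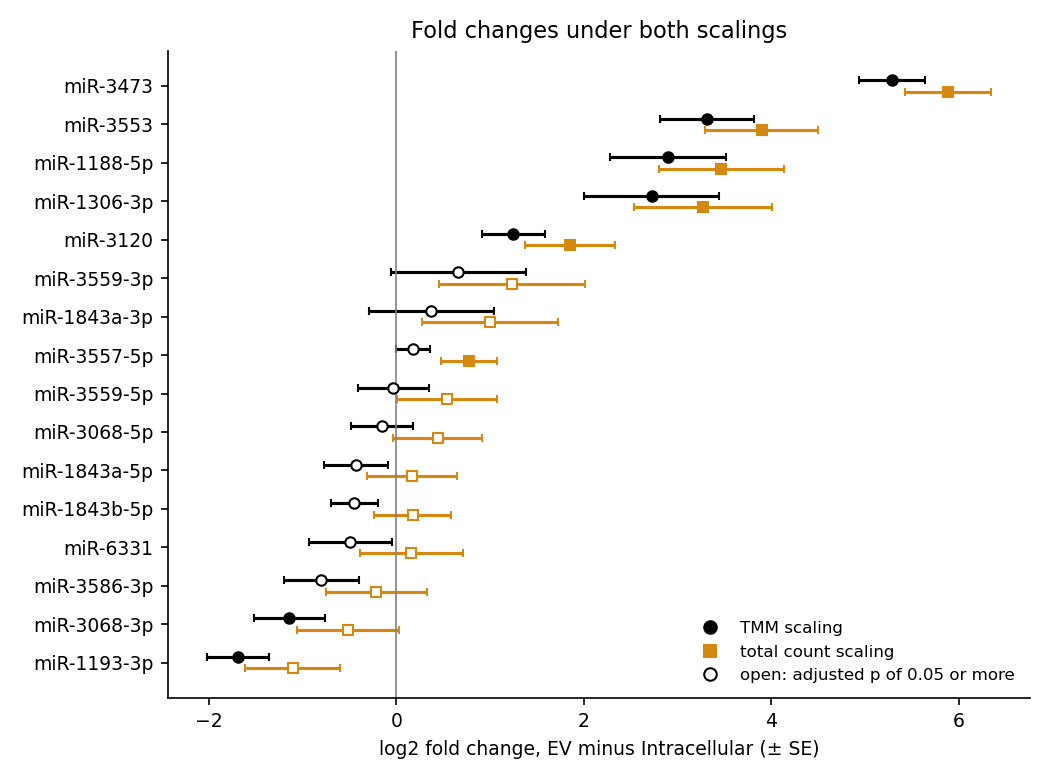
Log2 fold change (EV minus Intracellular, ± SE) of the 16 tested miRNAs with TMM scaling (black circles) and total count scaling (orange squares); filled symbols have an adjusted p under 0.05. The 5 uppermost are called higher under both scalings, and the 2 lowest, miR-3068-3p and miR-1193-3p, are called lower with TMM scaling alone.

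The other 9 tested miRNAs were not called with TMM scaling. miR-3557-5p, the most abundant of the set, was at 2537, 3173 and 2437 CPM in EV and at 975.0, 1833 and 1960 CPM in Intracellular replicates 1, 2 and 3. Every EV library was above every Intracellular one in CPM, which carry no TMM factor. These factors were 1.17 to 1.35 in EV and 0.557 to 0.963 in Intracellular libraries. The log2 fold change was 0.18 with TMM scaling (SE 0.19, edgeR adjusted p = 0.471) and 0.78 with total counts (SE 0.30, edgeR adjusted p = 0.0456). With upper quartile scaling it was -0.08 (edgeR adjusted p = 0.754). miR-3557-5p made up 62.1% ± 3.90 of the set's counts in EV and 64.6% ± 0.299 inside the cells (SD, n = 3), a difference within the spread of the EV libraries. Without it the set's share of counts was 0.166% ± 0.0303 in EV and 0.0869% ± 0.0284 in Intracellular libraries.

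The miR-1843 hairpins and the 5p arm of miR-3068 gave 4 of the 9. miR-1843b-5p was at 221.6, 151.5 and 162.5 CPM in EV against 104.4, 188.9 and 179.4 CPM, and miR-1843a-5p at 98.5, 56.8 and 140.8 CPM against 52.2, 98.7 and 110.1 CPM. In both the groups overlapped; with TMM scaling the log2 fold changes were -0.45 and -0.43 (edgeR adjusted p = 0.163 and 0.317), and with total counts both were 0.17. With upper quartile scaling miR-1843b-5p was called lower (-0.70, edgeR adjusted p = 0.0320). miR-1843a-3p had 0.37 (edgeR adjusted p = 0.679, 7 EV counts). miR-3068-5p was at 209.3, 113.7 and 86.6 CPM in EV and at 48.9, 106.5 and 141.7 CPM in Intracellular libraries, with overlap and a log2 fold change of -0.16 (edgeR adjusted p = 0.736), or 0.44 with total counts.

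Of the remaining 4, miR-6331 of the imprinted cluster was at 49.3, 94.7 and 21.7 CPM in EV and at 46.2, 48.6 and 56.9 CPM in Intracellular libraries, a log2 fold change of -0.49 (edgeR adjusted p = 0.393) that was 0.16 with total counts. miR-3559-5p was at 64.98 to 98.5 CPM in EV and 23.4 to 74.0 CPM in Intracellular libraries (-0.03, edgeR adjusted p = 0.948, or 0.54 with total counts), and miR-3559-3p at 0 to 47.4 against 7.61 to 12.7 CPM (0.66, edgeR adjusted p = 0.483). miR-3586-3p was at 24.6, 56.8 and 97.5 CPM in EV and 43.0, 78.2 and 88.9 CPM in Intracellular libraries. Its log2 fold change was -0.80 (edgeR adjusted p = 0.118), and it was called lower without EV replicate 3, its highest EV library (-1.37, edgeR adjusted p = 0.0371 with the tested miRNAs kept), and with upper quartile scaling (-1.07, edgeR adjusted p = 0.0209). Within the chromosome 6 cluster, which holds 7 of the 65, the 3 tested miRNAs thus comprised 1 higher, 1 lower and 1 uncalled.

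Several of the set are complementary to a miRNA with a lower number. In 9 of the 65 (13.8%) at least 16 bases in a row were the exact reverse complement of another known mature miRNA of lower number. Among the other 487 known miRNAs 8 (1.64%) had such a stretch to another of them. There both miRNAs of a pair were counted, whichever number was lower, so these shares are not the same measure. The 3 pairs below show this for miRNAs that were tested, with the complementary bases in capitals.
miR-3557-5p: gCCTTCTGACTCCAAGTCCAGT
miR-378a-3p: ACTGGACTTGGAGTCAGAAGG
miR-3553: cAGTGAATTCTACCAGTGCCATA
miR-183-5p: TATGGCACTGGTAGAATTCACT
miR-3586-3p: atACTAGACTGTGAGCTCCTCGA
miR-151-5p: TCGAGGAGCTCACAGTCTAGT
The complementary run was 21, 22 and 21 bases in these pairs. By RefSeq's positions miR-3557-5p and miR-378a-3p lie on opposite strands of the same site and overlap by 21 bases, as do miR-3553 and miR-183-5p by 22. miR-3586-3p was not matched to a position, so its pair is known here by sequence alone. miR-3120 is complementary over all its 21 bases to the hairpin that gives miR-214-3p. Adapters were ligated to the RNA itself, per the labels' protocols, which keeps the strand, but how strand was used in counting is not given in the sources used here.

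The clearest difference within a pair was that of miR-3557-5p and miR-378a-3p, a miRNA encoded in the gene of a regulator of mitochondrial metabolism. miR-3557-5p had 766 EV counts and 25227 Intracellular counts, and miR-378a-3p had 1101 and 6690. miR-378a-3p was at 3706, 5238 and 2675 CPM in EV and at 238.2, 451.5 and 536.8 CPM in Intracellular replicates 1, 2 and 3. Its log2 fold change of 2.65 (SE 0.23) stood beside 0.18 for miR-3557-5p. Of the pair's counts miR-3557-5p held 79.7% ± 1.05 inside the cells and 42.0% ± 5.11 in EV (SD, n = 3; exact 2-sided permutation p = 0.1, the smallest that 3 against 3 can give, and 0.133 adjusted over 4 pairs). Inside the cells it was the larger of the pair in every library, and in EV the smaller in every library.

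The shares within the other pairs differed less. miR-183-5p was at 234.0, 227.3 and 162.5 CPM in EV and at 14.1, 27.8 and 24.6 CPM in Intracellular libraries, with a log2 fold change of 2.61 (SE 0.30) beside 3.31 for miR-3553. miR-3553 held 25.2% ± 4.55 of this pair in EV and 17.0% ± 2.00 in Intracellular libraries (exact permutation p = 0.1, and 0.133 adjusted over the 4 pairs). miR-214-3p was at 1354, 1137 and 801.5 CPM in EV and at 144.6, 290.1 and 311.0 CPM in Intracellular libraries, a log2 fold change of 1.53 (SE 0.21) beside 1.25 for miR-3120. miR-3120 held 12.1% ± 3.02 of that pair in EV and 14.8% ± 0.739 in Intracellular libraries (exact permutation p = 0.1, and 0.133 adjusted). This difference was smaller than the SD of the EV libraries, with the groups just apart (EV at most 14.1%, Intracellular at least 14.2%). miR-3586-3p held 21.4% ± 10.6 and 26.0% ± 1.81 of its pair with miR-151-5p (exact permutation p = 0.7, and 0.7 adjusted), and overlapped between groups.

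**Figure D4:**
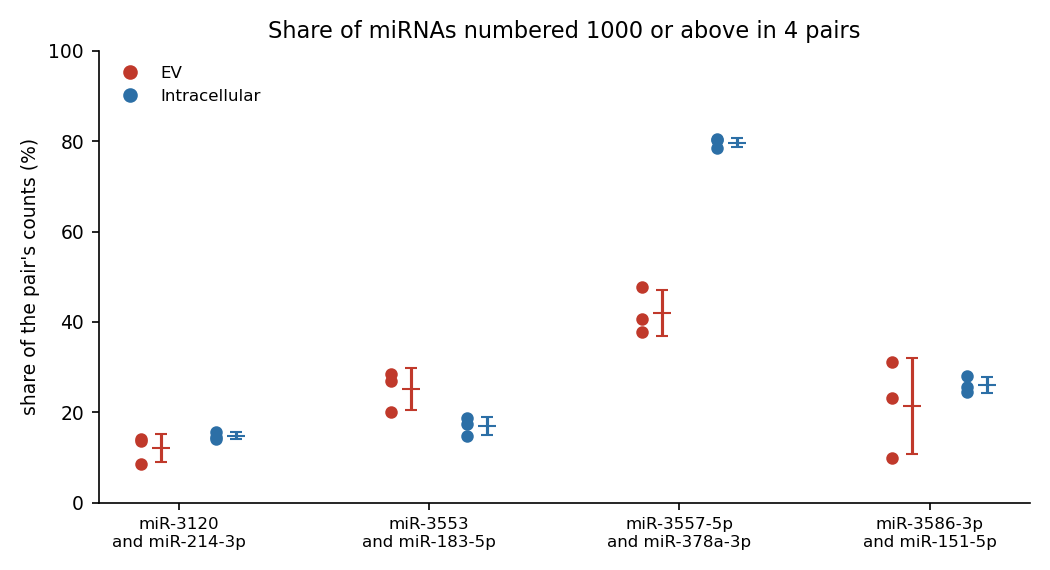
Share of counts (%) taken by the miRNA numbered 1000 or above in each of 4 pairs with a complementary miRNA or, for miR-3120, with a miRNA of the opposite hairpin, per library (points) with the mean and SD of 3 libraries beside them (EV red, Intracellular blue). miR-3557-5p stands near 80% in Intracellular libraries and between 37.7% and 47.7% in EV, while the other pairs differ by at most 8.17 percentage points between group means.

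Other miRNAs of the set that RefSeq places opposite another miRNA were too scarce to test. miR-3074, opposite miR-24-1, had 1 EV count and 131 Intracellular counts against 6 and 320 of miR-24-1-5p. miR-3065-3p, opposite miR-338, had 1 and 2 counts against 13 and 342 of miR-338-5p. miR-3543, within Rtl1, had 3 and 43 against 500 and 16643 of miR-434-3p, so its strand gave a small part of that locus in both groups. miR-3589 had 2 and 46 counts, more than the 1 and 1 of miR-505-3p, which overlaps it by 20 bases on the other strand.

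Arms of the same hairpin could be compared for few precursors. Both arms were listed for 13 precursors, and both were tested for 3. The less abundant arm of miR-3068, the 3p arm, stood at -1.29 ± 0.26 relative to the 5p arm in EV and at -0.47 ± 0.38 in Intracellular libraries on the log2 scale with 1 count added (SD, n = 3), a difference of -0.82. For miR-1843a these values were -1.59 ± 1.07 and -2.69 ± 0.59 and for miR-3559 -1.66 ± 1.35 and -2.22 ± 0.62, differences of 1.09 and 0.56 beside EV SDs of 1.07 and 1.35. miR-1306 gave 8 counts of the 3p and 2 of the 5p arm in EV but 41 and 69 in Intracellular libraries. miR-1193 gave no 5p count in EV beside 17 of the 3p arm, and 4 beside 2086 in Intracellular libraries.

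Among the 49 that did not pass the filter, miR-6329, within Rdx, had the largest gap in the direction of the cells. It was at 9.24, 13.3 and 18.3 CPM in Intracellular replicates 1, 2 and 3, from 223 counts, and at 0 in all EV libraries. A level of 0 in 279118 pooled EV counts allows up to 10.7 CPM (3 counts), below 2 of its Intracellular libraries, and 4.44 EV counts would be expected at its Intracellular share. It was the only one of the 36 without EV counts for which more than 1 was expected, and it was called lower when the filter was left out (edgeR adjusted p = 0.00996). Floors cover counting error only, since PCR copies were not marked.

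Of the other untested miRNAs, 13 had an EV count, 9 of them a single one. miR-1249, within Kiaa0930, had 2 EV counts and 141 Intracellular counts (7.61 to 15.4 CPM). miR-1306-5p had 2 and 69 (4.63 to 5.44 CPM), miR-3072 1 and 51, and miR-6324, within Brwd1, 1 and 50. These EV counts were within what the depth allows. miR-3064-5p was the only one of the set with no Intracellular count, and it had 1 EV count. A further 41 miRNAs, neither tested nor described singly by rule, had at most 1 EV count and at most 35 Intracellular counts each.

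Mature sequences of the set were richer in G and C than those of other known miRNAs, but less so among those that could be tested. The median was 52.4% for the 65 and 47.6% for the other 487, and the means were 53.1% ± 10.2 and 47.9% ± 9.99 (SD over sequences). C made up 26.7% on average against 22.9%, and T 24.6% against 28.8%. Among those with an EV count the medians were 50.0% (29 sequences) and 47.6% (359), and among those tested 46.7% (16) and 45.8% (274). Sequences of 23 bases or longer made up 35.4% of the set and 21.1% of the others.

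**Figure D5:**
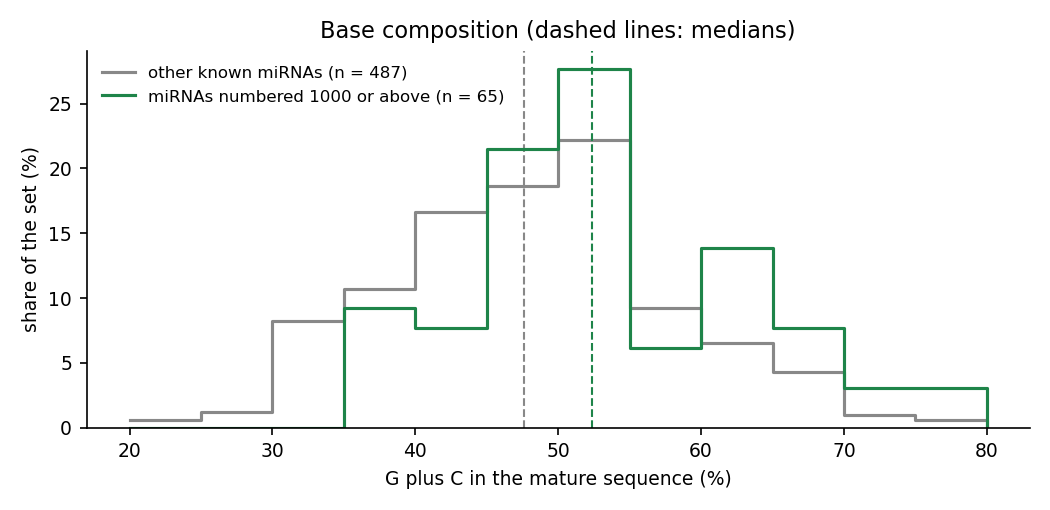
Share of each set (%) by G plus C content of the mature sequence, in bins of 5 percentage points, for the 65 miRNAs numbered 1000 or above (green) and the 487 other known miRNAs (grey); dashed lines are the medians, 52.4% and 47.6%. The green line is above the grey one in each bin from 60% upward.

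Base composition and fold change are set side by side here as a description. Across the 16 tested miRNAs G plus C content and log2 fold change had a Spearman's rho of 0.36 and a Pearson's r of 0.53. Across the 274 other known ones these were 0.29 and 0.31. These are descriptions across miRNAs that share libraries and depth, not independent replicates. The 16 include the 4 that were over the filter through their EV libraries, which favours higher values in EV. The values for the set therefore support no relation.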

How the data were processed

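The authors deposited whole-number counts per mature miRNA, which were used here; a second deposited table, scaled to library size, was not used. Cutadapt and the build Rnor_6.0 are named in the submitters' processing notes. Aligner, miRNA database and counting program: not given in the sources used here. Each column name gave the sample's kind and replicate number. Counts were tested for EV minus Intracellular with edgeR 4.0.16 in R 4.3.3 (glmQLFTest, TMM scaling, robust dispersions, 2-sided), fitted on all rows that passed filterByExpr (minimum count 10, minimum total 15), with Benjamini-Hochberg adjustment over them. The filter scales with depth: its threshold was 10.3 CPM, about 1 EV count. CPM carry no TMM factor. SE were taken from the F statistic. The fit was tested on simulated data. Equal-depth numbers were calculated from the hypergeometric distribution. Members and lists were chosen with earlier results of these data known. Named were all tested miRNAs, the 8 untested ones with the highest summed mean CPM, and any untested with at least 2 EV counts and fewer Intracellular ones (none). Replicate libraries differed beyond sampling error (lowest chi-square to degrees of freedom ratio 3.67). Alternatives were other scalings, filters, DESeq2 1.42.0, limma-voom (limma 3.58.1), known miRNAs alone, a replicate block and each library left out. Sequences come from the deposited table, and positions from RefSeq GRCr8 by exact match.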

Additional observations from a re-analysis of the deposited data

How the results depend on the processing

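With the set's 5 higher and 2 lower calls as reference, total counts gave 0 lower, upper quartile scaling 4 lower and limma-voom 1 lower; leaving out 1 library gave 2 to 5 higher and 0 to 2 lower, the lowest where the filter, applied again without an Intracellular library, tested only 6 or 7 of the set. Over all miRNAs the reference was 84 higher and 56 lower of 328 tested. Without a filter 197 of 1071 tested were higher. Total counts gave 3 and upper quartile scaling 92 lower of 328, and known miRNAs alone 37 lower of 290. Leaving out 1 library with tested miRNAs kept gave 62 to 91 higher and 18 to 58 lower of 328. Lower calls were then 26 without EV replicate 2 and 36 without Intracellular replicate 3. With the filter applied again 195 to 380 were tested, with 50 to 69 higher and 26 to 55 lower. Lower calls were then 26 of 376 without EV replicate 1 and 27 of 195 without Intracellular replicate 2 or 3. The 50 higher calls were of 195 tested, so counts of calls are not comparable where the number tested differs. Correlations of same-numbered libraries' deviations were 0.03, 0.09 and -0.02, and those of libraries with unlike numbers -0.09 to 0.03. Sampling error at EV depth can hide a pairing, so these values do not decide whether replicate numbers pair the samples. The replicate block gave 5 higher and 2 lower in the set, 87 and 46 over all.

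Signs turned only for uncalled miRNAs. With total counts these were miR-1843a-5p (0.17), miR-1843b-5p (0.17), miR-3068-5p (0.44), miR-3559-5p (0.54) and miR-6331 (0.16); with upper quartile scaling, miR-3557-5p (-0.083). miR-3559-5p was also at 0.017 with limma-voom, 0.016 with the replicate block and 0.085 with known miRNAs alone. Leaving out 1 library turned miR-3068-5p (0.032, 0.15 and 0.21), miR-3559-5p (0.036 to 0.24) and miR-3559-3p (-0.48 to -0.44). The arm difference of miR-3559 turned from 0.56 to -0.15 with a prior count of 0.25.

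The difference in miRNAs detected (-28, EV minus Intracellular) was -18.7 at 3 or more counts, and 3.44 (1 count) or 3.85 (3 counts) at equal depth. The difference in share of counts (0.192 percentage points) was 0.0791 without miR-3557-5p. The cause was not tested, save that fewer miRNAs or samples entered where stated. EV depth limits single miRNAs: of the 7 calls, 5 rest on fewer than 20 EV counts.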
